A study of Mus musculus with 12 samples.

Results

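Aquaporins are the channel proteins through which water crosses cell membranes, and the transcripts of 6 of their genes, Aqp1, Aqp3, Aqp4, Aqp7, Aqp8 and Aqp11, were followed in intestinal mucosa. They were taken from a table of 53715 genes as the identifiers that the GENCODE M21 annotation pairs with these symbols, and all 6 were found. Each of the 6 passed the filter on low counts that left 16558 genes for testing. The other 6 mouse aquaporins, Mip, Aqp2, Aqp5, Aqp6, Aqp9 and Aqp12, were looked at beside them.

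RNA-seq was performed on ileal and on colonic mucosa of male C57BL/6J mice aged 8 weeks, to find genes that change when the metal ion transporter SLC39A8 is missing from the intestinal epithelium. There were 4 groups of 3 libraries. Control mice are labelled Slc39a8-fl/fl, although the methods of the study describe controls as floxed, wild-type and Villin-Cre animals mixed. Slc39a8-IEC KO mice are labelled Slc39a8-fl/fl:Villin-Cre, and in them Cre is made under the Villin promoter in epithelial cells, so the gene is left intact in the other cells of the mucosa. The labels do not say whether ileum and colon came from the same mice.

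Water follows salt and nutrients across the intestinal epithelium, partly between the cells and partly through them. Aquaporins differ in what they carry: AQP1, AQP4 and AQP8 pass mainly water, AQP3 and AQP7 also pass glycerol, and AQP11 is an unusual member that lies mostly in membranes inside the cell. AQP1 is best known from the endothelium of blood and lymph vessels and from red cells, AQP4 from astrocytes and from the basolateral membrane of some epithelia, AQP7 from fat cells, and AQP8 from the surface epithelium of the colon.

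On GRCm38, Aqp3 (chr4:41092722-41098183) and Aqp7 (chr4:41033074-41048139) are neighbours on the minus strand of chromosome 4, with 44582 bases and 1 other annotated gene, Gm25637, between them. Aqp8 (chr7:123462291-123468004, plus strand) and Aqp11 (chr7:97724006-97738289, minus strand) are both on chromosome 7. Aqp1 is at chr6:55336432-55348555 on the plus strand.

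The upstream regions of Aqp3, Aqp7 and Aqp8 are shown because these genes had the most one-sided levels between the tissues in control mice, the neighbours Aqp3 and Aqp7 in ileum and Aqp8 in colon. Each line gives the 250 bases before the RefSeq transcription start on GRCm38.p6, read 5′ to 3′ on the strand of the gene, with capitals marking a matched motif.
Aqp3 (chr4:41098184-41098433, minus strand): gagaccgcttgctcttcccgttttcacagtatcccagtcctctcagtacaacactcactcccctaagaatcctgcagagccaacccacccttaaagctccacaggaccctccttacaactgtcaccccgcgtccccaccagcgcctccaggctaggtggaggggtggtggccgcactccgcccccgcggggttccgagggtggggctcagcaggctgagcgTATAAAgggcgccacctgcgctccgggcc
Aqp7 (chr4:41048137-41048386, minus strand): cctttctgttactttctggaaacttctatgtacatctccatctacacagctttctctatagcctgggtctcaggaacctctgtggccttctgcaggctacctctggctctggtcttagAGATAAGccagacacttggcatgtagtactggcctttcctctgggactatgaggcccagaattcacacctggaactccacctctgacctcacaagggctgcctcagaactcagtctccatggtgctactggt
Aqp8 (chr7:123462044-123462293, plus strand): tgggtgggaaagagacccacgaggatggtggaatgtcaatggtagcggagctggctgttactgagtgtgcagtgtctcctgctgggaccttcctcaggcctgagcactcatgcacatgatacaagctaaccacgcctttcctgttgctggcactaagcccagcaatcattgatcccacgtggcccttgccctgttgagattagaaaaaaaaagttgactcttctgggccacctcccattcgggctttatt

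These bases were searched on both strands for 4 motifs, which were the basal promoter element TATAAA, the caudal-type factor motif TTTATG, the HNF4A motif CAAAGTCCA and the GATA factor motif AGATAAG. Aqp3 held TATAAA from 29 to 24 bases before its start, a motif found in 12.4% of 32851 promoters. Aqp7 held AGATAAG from 132 to 126 bases before the start shown, found in 2.74% of promoters. RefSeq gives Aqp7 another start at position 41047962, not shown, and the 250 bases before it (chr4:41047963-41048212) held none of the 4. The window of Aqp8 held none of the 4, of which TTTATG is in 10.8% and CAAAGTCCA in 0.384% of promoters. A match says only that these letters are present.

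Levels are given as CPM, that is, the rounded expected counts of a gene per 1000000 counts of a library whose size was scaled by TMM factors. Library totals were 16749138 to 27903083 expected counts. Slc39a8, the deleted gene, was at 5.22 to 8.39 CPM in the ileal control and 2.62 to 4.35 CPM in the ileal KO libraries. In colon it was at 20.1 to 20.8 and 7.35 to 11.5 CPM, so the genotypes did not overlap in either tissue. The tissue labels were checked with defining markers. The summed level of 4 ileal enterocyte markers was 12367 to 16726 CPM in the ileal and 637 to 967 CPM in the colonic libraries, and that of 5 colonocyte markers was 412 to 3580 and 20738 to 36856 CPM. Car1 and Cyp2c55, with colonic medians of 19979 and 7071 CPM, made up most of the colonic sum, and Ms4a12 went the other way, at 4.59 to 13.1 CPM in ileum and 3.07 to 4.61 CPM in colon. Ileal control replicate 3 and KO replicate 1 stood apart by few smooth muscle transcripts, with summed levels of 6 markers of 34.2 and 20.2 CPM against 1814 to 2643 CPM in the other ileal libraries. Ileal KO replicate 2 held the highest ileal sum of colonocyte markers, 3580 CPM against 412 to 741 CPM in the other 5.

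Divided by the length of all exons of the gene, so that genes can be compared, the median levels were led by different members in the 2 tissues. Over the 6 ileal libraries the median level was 38.6 CPM per kb for Aqp1, 9.96 for Aqp7, 3.32 for Aqp11, 2.96 for Aqp4, 0.937 for Aqp3 and 0 for Aqp8. The ranges of Aqp11 and Aqp4 and of Aqp4 and Aqp3 overlapped, and those of Aqp1 and Aqp7 did not. Aqp8, last by its median, ran from 0 to 42.6 CPM per kb and so overlapped all the others. Over the 6 colonic libraries the median was 45.2 CPM per kb for Aqp8, 21.3 for Aqp1, 10.7 for Aqp4, 3.56 for Aqp11, 0.110 for Aqp3 and 0.0793 for Aqp7. There, the ranges of Aqp8 and Aqp1, of Aqp1 and Aqp4, and of Aqp3 and Aqp7 overlapped. Dividing by the longest coding transcript kept both orders of medians. It raised the median of Aqp11 to 8.37 CPM per kb in ileum and 8.98 in colon, so which ranges overlap depends on the length used. Because cDNA was primed from the poly(A) tail, a length correction is approximate.

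As a share of the summed level per kb of the 6 genes, Aqp1 made up 43.4% to 76.2% in ileum and 8.71% to 46.0% in colon. Aqp8 made up 28.5% to 71.9% in colon and 42.7% in ileal KO replicate 2. In that library the longest coding transcript put Aqp8 at 41.5% and Aqp1 at 39.6%. The sum over the family was 40.2 to 114 CPM per kb in ileum and 45.4 to 168 CPM per kb in colon, so the totals overlapped while the makeup differed.

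**Figure D1:**
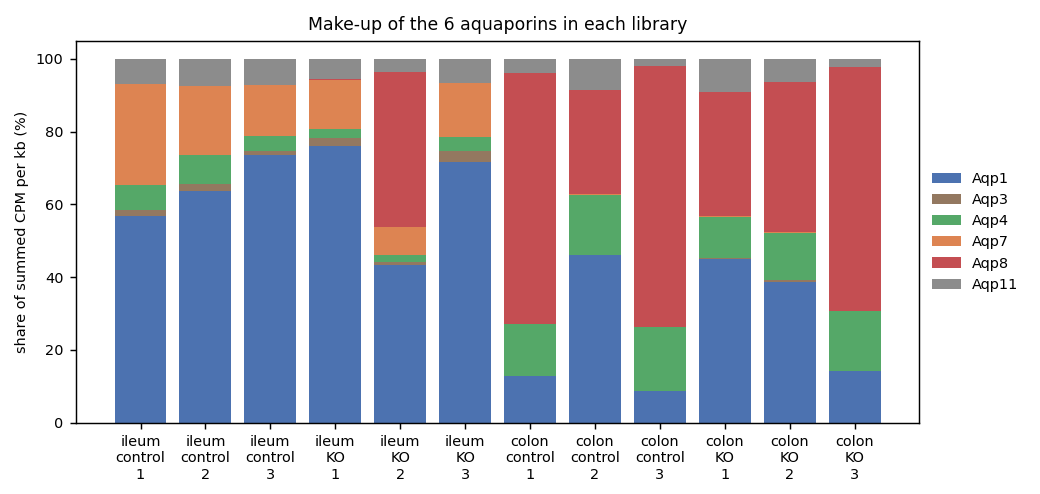
Share of each of the 6 aquaporins (colours, in percent, vertical axis) in their summed CPM per kb of exon, one bar for each of the 12 libraries. Aqp1 and Aqp7 fill most of the ileal bars except that of KO replicate 2, where Aqp8 makes up 42.7%, and Aqp8, Aqp1 and Aqp4 fill the colonic bars.

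In control mice the folds between the tissues were largest for Aqp8, which was high in colon, and for the glycerol-carrying Aqp7 and Aqp3, which were high in ileum. In KO mice they were largest for Aqp7, Aqp3 and Aqp4. Between control libraries, edgeR's quasi-likelihood test called 5 of 6 aquaporins at a Benjamini-Hochberg adjusted p under 0.1, taken over all 16558 genes, of which 35.9% were called. Aqp1, Aqp3 and Aqp7 were lower and Aqp4 and Aqp8 higher in colon. Between KO libraries 4 of 6 were called, against 37.1% of all genes, the same genes without Aqp8. The median log2 fold change of the 6 was -0.76 in control and -0.72 in KO mice, where that of all genes was 0.02 and 0.01.

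Aqp7, an aquaglyceroporin, was at 36.3, 21.4 and 34.7 CPM in the ileal control libraries 1 to 3 and at 44.0, 21.7 and 20.04 CPM in the ileal KO libraries. In colon it was at 0.0512, 0.144 and 0.424 CPM in control and 0.283, 0.414 and 0.166 CPM in KO libraries, which is 1 to 9 counts in each library. Every ileal library was therefore far above every colonic one. The log2 fold change of colon against ileum was -7.16 ± 0.57 (standard error) in control mice (edgeR adjusted p = 4.1e-06) and -6.63 ± 0.54 in KO mice (edgeR adjusted p = 5.5e-06). From pooled counts, Aqp7 was 146 times as high in ileal as in colonic control libraries (95% exact interval 85.4 to 276, for counting error only) and 97.0 times in KO libraries (61.2 to 164). The summed level of 5 adipocyte markers overlapped between tissues. It was 43.8 to 75.5 CPM in ileal and 43.3 to 78.6 CPM in colonic control libraries, and 53.3 to 57.0 and 53.2 to 78.6 CPM in KO libraries. The part of fat cells in the level of Aqp7 was not tested.

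Aqp3, which also carries glycerol, was scarce in both tissues. It was at 1.26, 1.39 and 1.78 CPM in the ileal control and 4.11, 1.64 and 2.70 CPM in the ileal KO libraries, or 19 to 69 counts. In colon it was at 0.154, 0.0480 and 0.141 CPM in control libraries, or 1 to 3 counts, and at 0.283, 0.363 and 0.249 CPM in KO libraries, or 6 to 7 counts. The tissues did not overlap, and the log2 fold change was -3.64 ± 0.51 in control (edgeR adjusted p = 3.0e-04) and -3.22 ± 0.46 in KO mice (edgeR adjusted p = 3.2e-04). From pooled counts it was 13.4 times as high in ileum in control mice (95% exact interval 6.22 to 34.3) and 9.003 times in KO mice (5.59 to 15.3).

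Aqp4, a water channel, ran the other way. The gene is at chr18:15389496-15410982 on the minus strand, and the antisense gene AC133525.2 overlaps it but none of its exons. It was at 19.4, 19.9 and 22.6 CPM in the ileal control and 17.5, 11.5 and 11.5 CPM in the ileal KO libraries. In colon it was at 86.4, 47.1 and 182 CPM in control and 36.6, 45.2 and 160 CPM in KO libraries. The lowest colonic library was above the highest ileal one, while replicate 3 of either genotype was well above the rest of colon. The log2 fold change was 2.35 ± 0.58 in control mice (edgeR adjusted p = 0.0107) and 2.59 ± 0.59 in KO mice (edgeR adjusted p = 0.0067). Without colonic control replicate 3 it was 1.67 in control mice, and without colonic KO replicate 3 it was 1.60 in KO mice, both still past the threshold.

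Aqp8, the water channel of the colonic surface epithelium, had 0 counts in the 3 ileal control libraries, which allows up to 0.127 to 0.200 CPM in each. It was at 106, 20.5 and 190 CPM in the colonic control libraries and at 27.9, 36.6 and 167 CPM in the colonic KO libraries. Colonic control libraries therefore held on average at least 643 times as much as ileal ones, reckoned against 3 counts in each ileal library, and the difference was called (edgeR adjusted p = 0.0207). Without colonic control replicate 3 this bound was 385, and for the lowest colonic control library alone it was 124. In the ileal KO libraries Aqp8 had 6, 1722 and 0 counts, that is 0.358, 67.3 and 0 CPM, so that replicate 2 was above 3 of the 6 colonic libraries. With it, the difference between the tissues in KO mice was not called (log2 fold change 1.76 ± 1.62, edgeR adjusted p = 0.45), and without it the adjusted p was 0.0072.

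Aqp1, the endothelial and red cell water channel, was the leading ileal member. It was at 68.8, 67.3 and 170 CPM in the ileal control and 228, 114 and 89.5 CPM in the ileal KO libraries. In colon it was at 32.8, 54.8 and 38.3 CPM in control and 61.5, 56.9 and 58.4 CPM in KO libraries. All ileal libraries were above all colonic ones, with a log2 fold change of -1.28 ± 0.40 in control mice (edgeR adjusted p = 0.0347) and -1.28 ± 0.40 in KO mice (edgeR adjusted p = 0.0338). The call was lost without ileal control replicate 3 (-0.72), colonic control replicate 1 (-1.13) or colonic control replicate 3 (-1.25) in control mice, and without ileal KO replicate 1 (-0.79) or colonic KO replicate 2 (-1.26) in KO mice. Without both ileal libraries with few muscle transcripts it was -0.72 in control mice (edgeR adjusted p = 0.0117) and -0.78 in KO mice (edgeR adjusted p = 0.0071).

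Aqp11, the intracellular member, was the one that was not called between the tissues in either genotype. It was at 29.8, 28.7 and 60.2 CPM in the ileal control, 59.2, 32.8 and 29.8 CPM in the ileal KO, 34.4, 37.0 and 29.0 CPM in the colonic control and 45.1, 32.7 and 31.1 CPM in the colonic KO libraries. All 4 groups overlapped. The log2 fold change between tissues was -0.24 ± 0.32 in control (edgeR adjusted p = 0.61) and -0.16 ± 0.32 in KO mice (edgeR adjusted p = 0.74), and its sign turned in both without the 2 ileal libraries with few muscle transcripts (0.18 and 0.22), and also without control replicate 3 alone in control mice (0.18) or KO replicate 1 alone in KO mice (0.21).

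**Figure D2:**
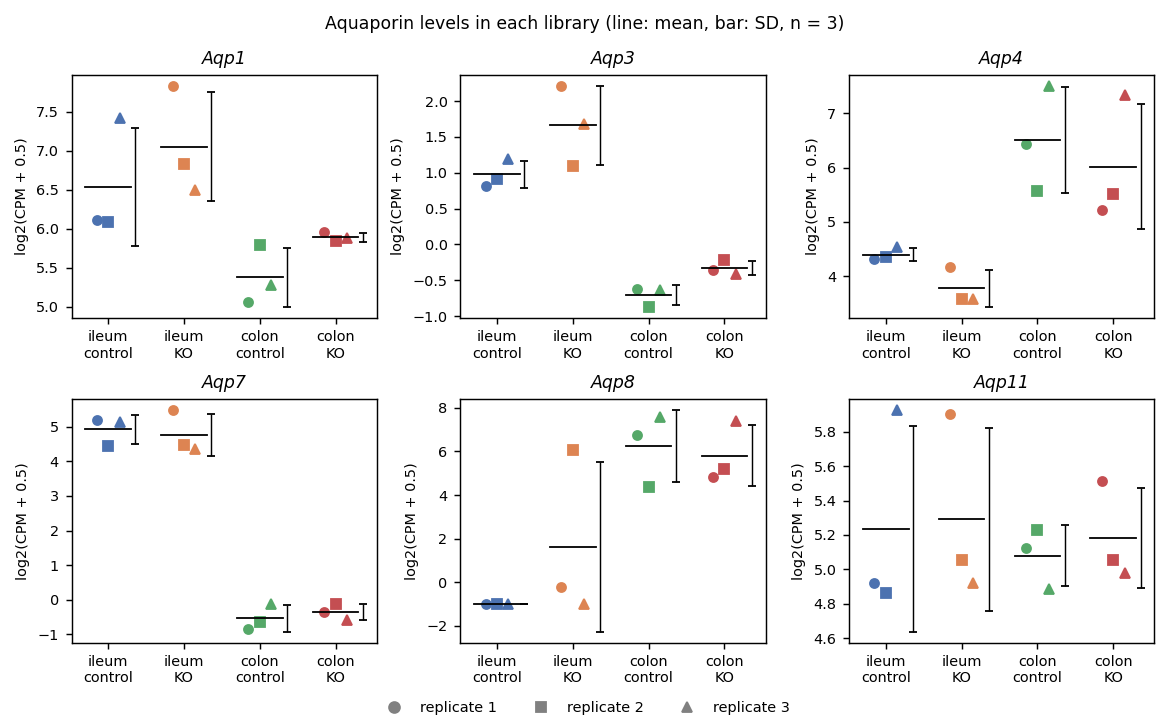
Level of each aquaporin as log2(CPM + 0.5) in the 12 libraries, by group, with the symbol giving the replicate number, a line for the mean and a bar for the SD (n = 3). Aqp3 and Aqp7 sit higher in ileum, Aqp4 sits higher in colon, and 1 ileal KO library has Aqp8 at a colonic level.

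**Figure D3:**
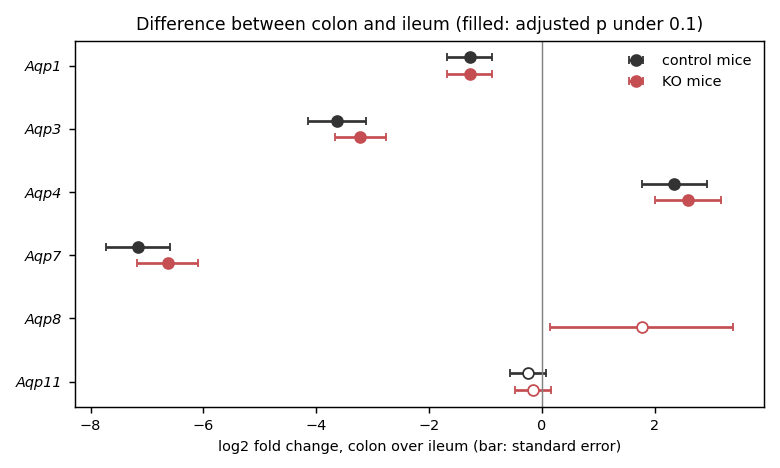
Fitted log2 fold change of colon over ileum (horizontal axis, bars are standard errors) for each aquaporin in control and KO mice, filled where the adjusted p is under 0.1. Aqp8 in control mice is left out because its ileal counts are 0, and the standard errors of Aqp11 span 0.

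Over all 12 libraries with genotypes kept apart, an exact two-sided permutation test of the tissue on log2(CPM + 0.5) gave p = 0.005 for Aqp1, Aqp3, Aqp4 and Aqp7, the smallest that 400 arrangements allow. It gave p = 0.015 for Aqp8 and p = 0.59 for Aqp11 in the same exact test. These p-values hold if the 12 libraries are from different mice, which the labels do not say. In control mice 5 of 6 aquaporins had ileal and colonic libraries that did not overlap, against 40.7% of all genes tested. In KO mice 4 of 6 did not overlap, against 50.4%.

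Loss of Slc39a8 from the epithelium was the comparison of interest of the study, and no aquaporin was called for it. In ileum, in colon, over both tissues and for the difference between the tissues, edgeR called 0 of 6 aquaporins and 0 of 16558 genes (0%). Slc39a8, the deleted gene, was among the genes tested and was not called by edgeR either. A missing call here therefore does not show that a gene was unchanged. The study, with DESeq2 and both tissues combined, reported 4 genes at an adjusted p under 0.1, Slc39a8 among them. At an unadjusted p under 0.05 there were 252 genes in ileum (1.52%), 385 in colon (2.33%), 641 over both tissues (3.87%) and 169 for the difference (1.02%). Of the aquaporins these included Aqp3 and Aqp8 in ileum, Aqp3 in colon and over both tissues, and Aqp8 for the difference. DESeq2 called 1 of 6, Aqp8, in ileum, where it called 2 of 27991 genes (0.00715%), and for the difference, where Aqp8 was the 1 gene called (0.00357%). Ileal KO replicate 2 holds 1722 of the 1728 counts of Aqp8 in the ileal KO libraries. It called 0 of 6 over both tissues, where 4 of 27963 genes were called (0.0143%), and 0 of 6 and no gene in colon (0%). In limma-voom 0 of 6 were called in each of the 4 comparisons, with 1 of 16558 genes called in ileum and 1 over both tissues (0.00604% each) and 0 in the other 2.

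Aqp3 was the member with the lowest p over both tissues. In colon all 3 KO libraries (6 to 7 counts) were above all 3 control libraries (1 to 3 counts), and the ratio of pooled counts was 2.59 (95% exact interval 1.04 to 7.29, for counting error only). In ileum the groups overlapped, with KO replicate 2 at 1.64 CPM below control replicate 3 at 1.78 CPM, and the ratio was 1.74 (1.33 to 2.28). Over both tissues the log2 fold change was 1.05 ± 0.31 (edgeR unadjusted p = 0.0055, adjusted p = 0.998), rank 41 of all genes by p. Exchanging genotypes within tissues, the exact permutation test gave p = 0.01, where 0.005 is the smallest possible if the 12 libraries are from different mice.

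Aqp4 in ileum was at 17.5 CPM or less in the KO libraries and at 19.4 CPM or more in the controls. The groups did not overlap, which held for 1 of 6 aquaporins and 3.7% of all genes in ileum. The log2 fold change was -0.62 ± 0.56 (edgeR unadjusted p = 0.29, adjusted p = 1) and an exact permutation test gave 0.1, the lowest p for 3 against 3. Between the 2 muscle-poor libraries the KO library had 0.771 times the control level, and among the other 4 the ratio of means was 0.584. In colon the genotypes overlapped, with a log2 fold change of -0.38 ± 0.55 that turned to 0.29 without control replicate 3.

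Aqp1 in colon was at 32.8 to 54.8 CPM in control and 56.9 to 61.5 CPM in KO libraries, again without overlap. With Aqp3 this made 2 of 6 aquaporins, against 12.8% of all genes in colon. The log2 fold change was 0.49 ± 0.40 (edgeR unadjusted p = 0.25, adjusted p = 1) and an exact permutation test gave p = 0.1. In ileum the genotypes overlapped, with a log2 fold change of 0.49 ± 0.40 that was -0.0087 without KO replicate 1 and 0.57 without both muscle-poor libraries (edgeR unadjusted p = 0.019, adjusted p = 0.95). Between those 2 libraries the KO library had 1.34 times the control level of Aqp1, and among the other 4 ileal libraries the ratio of means was 1.49. The genotype effect of Aqp7 and Aqp11 was between -0.11 and 0.41 on the log2 scale in either tissue and was not stable in sign. For Aqp7 it became positive in ileum without control replicate 1 (0.024), KO replicate 2 (0.055) or KO replicate 3 (0.091) and negative in colon without control replicate 1 (-0.016). For Aqp11 it became negative in ileum without control replicate 1 (-0.13), control replicate 2 (-0.15) or KO replicate 1 (-0.34) and negative in colon without KO replicate 1 (-0.088).

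The differences between ileal libraries went along with those of other transcripts. Aqp1 was at 170 and 228 CPM and Aqp11 at 60.2 and 59.2 CPM in the libraries with few muscle transcripts, above the other 4, which reached 114 and 32.8 CPM. The ratio of means was 2.34 for Aqp1, 1.97 for Aqp11, 1.69 for Aqp3, 1.58 for Aqp7 and 1.29 for Aqp4. Their summed level of 6 blood endothelial markers was also the highest in ileum, 28.3 and 20.4 CPM against 6.92 to 15.3 CPM, and that of 3 lymphatic endothelial markers was 12.03 and 12.3 CPM against 7.99 to 11.4 CPM, while 4 enteric glial markers summed to 0.722 and 0.537 CPM against 3.32 to 5.44 CPM. The 4 ileal enterocyte markers were also highest there, at 14235 and 16726 CPM against 12367 to 13426 CPM. General epithelial markers, 6 in number, were not, with sums of 17987 and 18882 CPM against 18704 to 22464 CPM. The sums were lower there for 3 fibroblast markers (9.01 and 8.17 against 68.8 to 101 CPM), 3 mesothelial markers (1.23 and 1.55 against 27.3 to 101 CPM) and 5 enteric neuron markers (6.54 and 7.93 against 13.4 to 18.8 CPM). Erythroid markers, 5 in number, were split between the libraries with few muscle transcripts. Their sum was the highest in ileum in control replicate 3 (88.3 CPM) and the lowest in KO replicate 1 (21.05 CPM). It was 26.6 to 73.7 CPM in the other 4 ileal libraries. In colon, where Aqp1 was lower, the blood and lymphatic endothelial markers summed to 10.9 to 29.0 and 12.9 to 22.4 CPM. No marker of these lists was at 0 in a whole group. In bulk mucosa fewer cells of a type and less RNA in each cell cannot be told apart, and the part of these cell types in the levels of Aqp1 and Aqp11 was not tested.

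In ileal KO replicate 2, Aqp8 was at 94.1% of its colonic median. Of the 5 colonocyte markers, 3 had their highest ileal level in the same library but reached other shares of their colonic medians: Car1, a carbonic anhydrase, 13.2% (2632 CPM), Cyp2c55 7.70%, and the chloride exchanger Slc26a3 59.5%. Car4 (129 CPM, with 84.6 to 436 CPM in the other ileal libraries) and Ms4a12 (8.36 CPM, with 4.59 to 13.1 CPM) were within the range of the others. Sult1a1, a sulfotransferase, reached 10.2% and Gal3st2c 437%. Both were picked as the genes most like Aqp8 within groups, a measure that includes this library, so their levels here are no separate result. Hoxa13 and Hoxa11, homeobox genes of the hind part of the body, were at 0 counts in this and every other ileal library. Their colonic medians were 2.36 and 5.18 CPM. Both were picked as genes most like Aqp4 within groups over these same data, so their levels here are no separate result either. Aqp4 was at 11.5 CPM, at the low end of the ileal range.

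**Figure D4:**
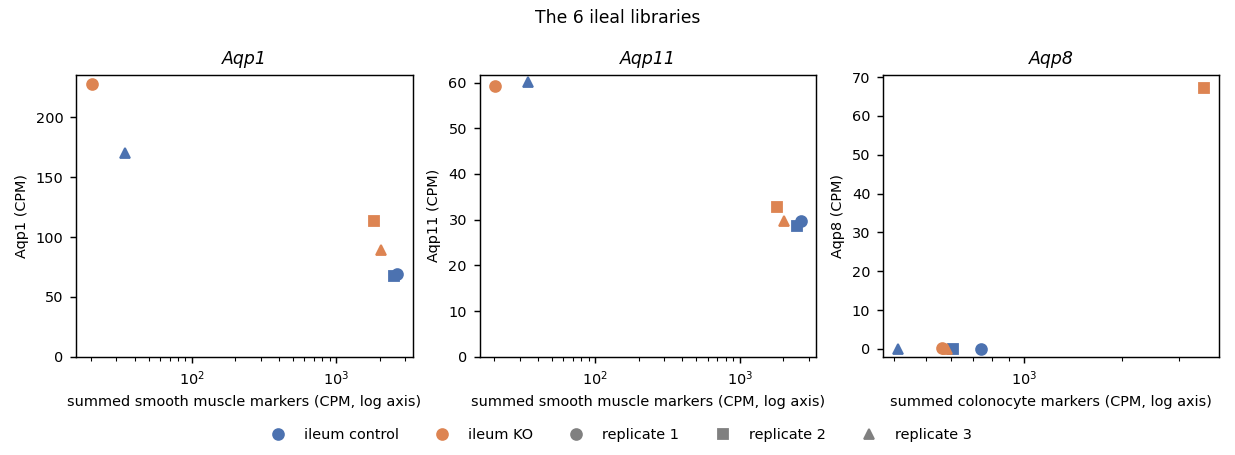
Aqp1 and Aqp11 (CPM) against the summed CPM of 6 smooth muscle markers, and Aqp8 (CPM) against the summed CPM of 5 colonocyte markers, in the 6 ileal libraries (log horizontal axes). The 2 libraries with few muscle transcripts have the highest Aqp1 and Aqp11, and KO replicate 2 alone has high Aqp8.

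In colon, Aqp4 and Aqp8 were highest in the same 3 libraries, control replicate 3, then KO replicate 3, then control replicate 1. Aqp8 varied 9.30-fold between the lowest and the highest colonic library and Aqp4 4.97-fold, while the KO mean was 0.731 times the control mean for Aqp8 and 0.768 times for Aqp4. The genotype effect of Aqp8 in colon was -0.45 ± 1.57 on the log2 scale (edgeR unadjusted p = 0.78, adjusted p = 1) and 0.29 without control replicate 3. Hoxa13, picked as the gene most like Aqp4 over these same data, was at 3.28, 1.44 and 7.06 CPM in the control libraries. In the KO libraries it was at 0.565, 0.622 and 7.06 CPM. The 5 erythroid markers summed to 287 CPM in control replicate 3 and 177 CPM in KO replicate 3 and to 23.4 to 35.2 CPM in the other 4. Aqp1 was at 38.3 and 58.4 CPM in these replicates 3, within its colonic range of 32.8 to 61.5 CPM. The part of blood in these values was not tested.

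**Figure D5:**
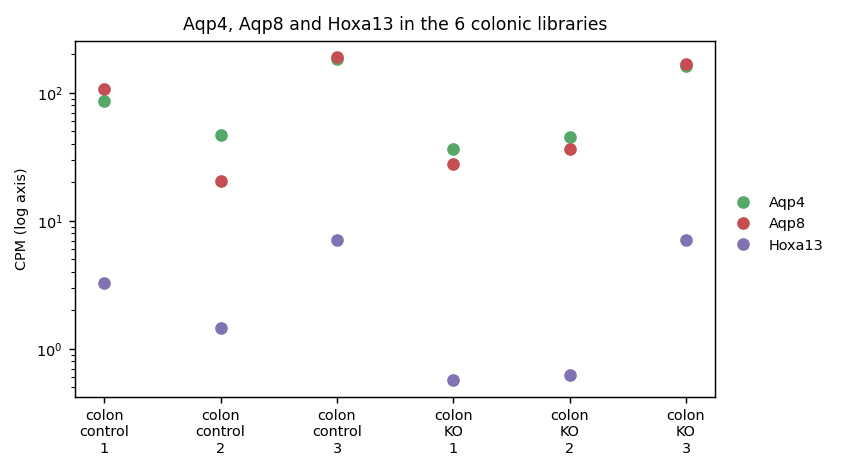
Aqp4, Aqp8 and Hoxa13 in each of the 6 colonic libraries (CPM, log axis). Replicate 3 of both genotypes and control replicate 1 have the highest values of all 3 genes. Hoxa13 is shown because it was the gene most like Aqp4 in these data, so its likeness to Aqp4 here is no separate result.

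The genes most like each aquaporin were found by Pearson's r of log2 CPM over the 12 libraries, among 16557 other genes, first as it stands and then with the 4 group means subtracted. These values describe libraries that share tissue and cell makeup and are given without p. Aqp7 was most like Slc15a1, the peptide transporter of the small intestine (r = 0.995), Nckap1 and Cyp4v3. Aqp4 was most like Hoxa13 both as it stands (r = 0.966) and within groups (r = 0.951), where Hoxa11 (0.932) and the immediate-early gene Fos (0.907) came next. Aqp8 was most like Pbp2, Gm44275 and Gsdmcl-ps (r = 0.955 to 0.946), and within groups Gal3st2c (0.912) and Sult1a1 (0.906). Aqp1 was most like Ints1, Usp22 and Itga3 (0.966 to 0.962), and within groups Paxip1, Kit and Cbx5 (0.988 to 0.986). Aqp11 was most like Tab1, Fam213a and Coq8a (0.966 to 0.951), and within groups the enteroendocrine granule gene Chga (0.988), Sephs1 and 2010300C02Rik. Aqp3 was most like Ttc36 (0.982), Agpat2, an enzyme of glycerolipid synthesis, and the mast cell protease gene Mcpt1, and within groups Sec24b, Ambra1 and Ppp1r15a (0.946 to 0.925).

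The remaining aquaporins were at or near 0. Aqp6 had 0 counts in all 12 libraries, which allows up to 0.117 to 0.200 CPM in each. Mip, Aqp2 and Aqp5 had at most 2 counts in any library and Aqp9 at most 5. Aqp12, best known from the pancreas, alone passed the filter. It had 0 to 2 counts in ileal libraries, 2, 8 and 9 in colonic control libraries (0.102, 0.384 and 0.424 CPM) and 20, 14 and 21 in colonic KO libraries (0.942, 0.725 and 0.872 CPM). It was higher in colon in control (edgeR adjusted p = 0.069) and in KO mice (edgeR adjusted p = 0.0030), and KO against control in colon gave a log2 fold change of 1.45 ± 0.67 (edgeR unadjusted p = 0.052, adjusted p = 1).

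Since AQP3 and AQP7 carry glycerol, 14 genes were read beside them, 13 for enzymes of glycerol, glycerol phosphate and glyceride metabolism and 1, Plin2, for a protein that coats lipid droplets. In control mice 11 of 14 were called between the tissues, 8 lower and 3 higher in colon, against 19.6% of all genes lower and 16.2% higher. Plin2 was 1 of the 3 higher ones (log2 fold change 0.65, edgeR adjusted p = 0.087), and is named after its values were seen. In KO mice 9 of 14 were called, 8 lower and 1 higher, against 20% and 17.1%. Glycerol kinase, Gk, was at 301 ± 83.4 CPM (SD, n = 3) in ileal and 26.1 ± 3.17 CPM in colonic control libraries. Dgat1, which completes triglyceride synthesis, was at 404 ± 75.6 and 40.5 ± 5.35 CPM, and Gpd1, glycerol 3-phosphate dehydrogenase, at 334 ± 59.8 and 52.3 ± 13.5 CPM. Mgll, which releases glycerol from monoglycerides, was higher in colon, at 110 ± 26.1 against 11.5 ± 4.44 CPM. These 4 were called the same way in KO mice. None of the 14 was called for genotype, in edgeR or in any alternative.

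Of 24 genes of ion transport, which water follows, 22 were tested. In control mice 11 of 22 were called, 9 higher and 2 lower in colon, and in KO mice 13 of 22, 9 higher and 4 lower, where 35.9% and 37.1% of all genes were called. Slc9a3, the sodium-hydrogen exchanger of absorptive cells, was at 21.2 ± 10.8 CPM (SD, n = 3) in ileal and 464 ± 101 CPM in colonic control libraries. Scnn1b, a subunit of the epithelial sodium channel, was at 0.0142 ± 0.0245 and 3.54 ± 0.713 CPM, and the proton pump gene Atp12a was at 0 in the ileal control libraries and 2.23 ± 1.21 CPM in colon. Guca2b, the hormone uroguanylin, was lower in colon, at 15.2 ± 2.54 against 352 ± 217 CPM. None was called for genotype.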

How the data were processed

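RNA of ileal and colonic mucosa was reverse transcribed with oligo-dT, prepared with NEBNext Ultra II and sequenced as paired ends. The authors aligned reads with STAR (mm10, from the submitters' processing notes) and deposited 1 table of expected counts per gene and library, estimates that are not normalized. A reporting summary of the study has duplicates taken out by UMI-tools and genes counted by FeatureCounts, which gives whole numbers by default, while part of the deposited values are not whole, and the sources used here do not say how those were estimated. Of 53807 lines, 92 are spike-ins with 0 counts and were left out, and 53620 of 53715 identifiers have a symbol.

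Samples were grouped by their labels, 3 libraries in each of 4 groups. Expected counts were rounded. edgeR 4.0.16 in R 4.3.3 (filterByExpr, TMM, estimateDisp, glmQLFit, glmQLFTest) fitted all 12 libraries with 1 estimate of the spread, and p-values were adjusted by Benjamini-Hochberg over 16558 genes, with the study's threshold of 0.1. Genotype over both tissues had tissue as an additive term. If each mouse gave both tissues, libraries are not independent and the genotype test, 3 against 3, would allow no exact p below 0.1. The tissue test would then need tissues exchanged within each mouse, which was not done. Exact permutation tests used log2(CPM + 0.5), and log2 CPM for likeness used a prior count of 2. Samples were not treated as paired by replicate number. The edgeR comparison of colon with ileum in control mice was tested on simulated counts, and the genotype fits were not.

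Alternatives were DESeq2 1.42.0, limma-voom (limma 3.58.1), RLE, upper-quartile and library size scaling, no filter, no rounding, the replicate block, the libraries of a comparison alone, each of 12 libraries left out, and removal of libraries that stand apart. Removing ileal KO replicate 2 with the few-muscle libraries was chosen after seeing the data. The members, lists and markers were chosen with earlier results of these data known. Genes named beside the members are at most 4 of a list per comparison, those past the threshold with the largest fold, the 3 most alike for each measure (1 of these is not reported here), other aquaporins, overlapping genes, Slc39a8 and markers. Depth was 16749138 to 27903083, so the precision of genes with few counts, such as Aqp3 and Aqp7 in colon, is set by counting. Of 75-base windows of their transcripts, 0.364% of Aqp7 and none of the other members' were found in another gene. Sequences are from RefSeq, where 5 of 6 members had a promoter entry, and coordinates from GENCODE M21. Plots used matplotlib 3.10.9 (Python 3.11.15). Other experiments of the study were not analysed here.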

Additional observations from a re-analysis of the deposited data

Results flagged for a closer look

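Among the 6 ileal libraries, Aqp8 in KO replicate 2 was at 67.3 CPM, and its gap to the next library took up 0.890 of the whole range of log2(CPM + 0.5), above Dixon's critical value for 6 samples. Each aquaporin was examined in each tissue over 6 libraries with the genotypes together, since groups of 3 are not examined. This rule flags about 1 in 20 groups of normally spread values by chance. Most ileal libraries had 0 counts of Aqp8, so that rate does not hold for this set. The share of the range also depends on the 0.5 added to CPM. No aquaporin moved in opposite directions with genotype in every library of the 2 tissues.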

How the results depend on the processing

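The number of aquaporins called was 4 to 5 of 6 between tissues in control mice and 3 to 5 in KO mice over all alternatives, and Aqp3, Aqp4 and Aqp7 kept their direction and call in each of them. Aqp8 was not called in control mice with limma-voom (adjusted p = 0.128) and was called in KO mice with limma-voom, without ileal KO replicate 2, and without all 3 ileal libraries that stand apart. Aqp1 was also not called in KO mice with library size alone (-1.04). DESeq2 called 1 aquaporin (Aqp8) for genotype in ileum and 1 for the difference between the tissues, of 2 and 1 genes called in all (0.00715% and 0.00357%), where edgeR called 0. The cause was not tested. Without ileal KO replicate 2, or when the 3 ileal libraries that stand apart were left out, the genotype effect of Aqp8 over both tissues was -0.30 and -0.47, and with limma-voom it was -0.27, against 2.06. With fits in which all ileal libraries hold 0 counts of Aqp8 there is no ileal genotype effect.

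On the log2 scale, the tissue effect of Aqp11 (-0.24 in control, -0.16 in KO mice) was 0.18 and 0.22 without the muscle-poor ileal libraries, 0.21 and 0.29 without ileal KO replicate 2 as well, and 0.089 in KO mice with library size alone. Its permutation difference over both genotypes was then 0.11. The genotype effect of Aqp7 over both tissues, -0.00166, was 0.038 in DESeq2, 0.086 with library size alone and 0.010 without the filter, and its permutation difference was -0.028 with a pseudocount of 1. Leaving out single libraries, the tissue effect of Aqp11 was -0.43 to 0.18 in control and -0.37 to 0.21 in KO mice. The genotype effect in ileum was -0.0087 to 1.08 for Aqp1, -0.56 to 0.091 for Aqp7 and -0.34 to 0.48 for Aqp11. In colon it was -1.35 to 0.29 for Aqp4, -0.016 to 1.47 for Aqp7, -1.70 to 0.29 for Aqp8 and -0.088 to 0.23 for Aqp11. Over both tissues it was -0.33 to 0.17 for Aqp7, -0.30 to 3.19 for Aqp8 and -0.085 to 0.28 for Aqp11. None of these effects was called.

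The deviations of same-numbered libraries correlated at -0.73 to 0.38. Both ends are from ileal control against ileal KO libraries, which cannot share a mouse. For no pair of groups were all 3 correlations over 0.1, so the samples were not treated as paired. Between ileal and colonic control libraries, which could share mice, the correlations were -0.063 to 0.17, and 2 of 6 correlated best with their own number. Between ileal KO and colonic KO libraries they were 0.077 to 0.30 and each of the 6 correlated best with its own number, which is a hint from the data and not from the design. With the replicate block, 5 aquaporins were called between tissues in control mice and 4 in KO mice, and 0 for genotype. That block joins same-numbered libraries of all groups, control and KO alike, although these genotypes cannot share a mouse. It is therefore not a test that allows for tissues from the same mice. Against TMM, library size alone moved the median of all genes by 0.22 (control) and 0.27 (KO) between colon and ileum, upper-quartile factors by 0.0996 and 0.13, and library size alone by 0.10 between genotypes in colon. Depth limits Aqp3 and Aqp7 in colon, at 1 to 9 counts.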
